A study of Mus musculus with 26 samples.

Results

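Of the 39179 genes in the count tables, 10 that make, channel or remove eicosanoids are described here in mouse cortex across stroke, sham surgery, diet and weeks of feeding. They are the cyclooxygenases Ptgs1 and Ptgs2, the prostaglandin synthases Ptges, Ptgds and Hpgds, the prostaglandin-degrading enzyme Hpgd, the lipoxygenase genes Alox5, Alox5ap and Alox12b, and the phospholipase Pla2g5. They were put together because Hpgd, Alox12b, Ptgds and Pla2g5 differed between groups in these same libraries, so for these 4 genes the values are given as a description, without a test. The other 6 genes were tested in a model fitted over all genes. A filter on low counts kept 16325 genes, and all 10 were among them.

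The study fed C57BL/6J mice diets in which fat supplied 60% (high-fat diet) or 6% (control diet) of calories for 6 or 15 weeks, induced a stroke or performed a sham procedure, and sequenced total RNA from cortex collected at 3 days. The 26 libraries form 6 groups, namely stroke after 15 weeks of high-fat diet (6 libraries), stroke after 15 weeks of control diet (4), stroke after 6 weeks of high-fat diet (6), stroke after 6 weeks of control diet (4), sham surgery after 6 weeks of high-fat diet (3) and sham surgery after 6 weeks of control diet (3). Stroke tissue was the infarct core with a rim of surrounding cortex, so every stroke library mixes injured and spared tissue. Ages are not given in the sources used here, all groups share one strain, and 15 against 6 weeks of feeding cannot be told apart from older age at surgery or from separate handling.

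Eicosanoids are short-lived lipid signals cut from the arachidonic acid of cell membranes. Phospholipases release the fatty acid, cyclooxygenases turn it into the prostaglandin precursor that terminal synthases convert to prostaglandin E2, prostaglandin D2 and others, and 5-lipoxygenase with its activating protein starts the leukotrienes. In brain, prostaglandin D2 is made by a lipocalin-type synthase of meninges, choroid plexus and oligodendrocytes and by a haematopoietic-type synthase of microglia and macrophages, and the cyclooxygenases and leukotrienes are known for their part in inflammation and in control of vessel tone after ischaemia.

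Sequences before the transcription start were compared because several of the genes stood apart in the same direction after stroke and Alox12b in the other. The RefSeq promoter table (build GRCm38.p6) held entries for 9 of the 10 genes, with a pair of starts for Pla2g5, and the 250 bases before each start were searched on both strands. The letters GAGGAA, the core bound by the myeloid factor PU.1, or their reverse complement TTCCTC occurred before a start of 8 of the 9 genes, against 23.3% of all 32851 windows of the same length. Ptgds had none. The match lay closest to the start in Ptgs1, 24 bases before it, and in Hpgds, 49 bases before it. The GC box GGGCGG occurred in 5 of the 9 genes, against 32.7% of windows, with 3 copies in Alox12b. The glucocorticoid receptor core TGTTCT occurred in 2, against 16.1%, the letters CCAAT in 1, against 33.8%, and neither TATAAA (12.4% of windows) nor the cyclic AMP response element core TGACG (17.8%) in any. A match is a string of letters and says nothing about binding. The 5 windows below are from 2 genes that stood higher after stroke (Hpgds, Hpgd), 1 that stood lower (Alox12b), the constitutive cyclooxygenase and the most abundant synthase, each read 5′ to 3′ on the strand of the gene with GAGGAA or TTCCTC in capitals.
Hpgds, chr6:65144731-65144980, minus strand: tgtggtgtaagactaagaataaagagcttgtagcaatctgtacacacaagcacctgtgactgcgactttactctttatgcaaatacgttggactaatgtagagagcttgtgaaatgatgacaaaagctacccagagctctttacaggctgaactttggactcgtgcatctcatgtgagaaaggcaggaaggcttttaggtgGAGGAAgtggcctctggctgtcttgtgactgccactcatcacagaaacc
Ptgs1, chr2:36230176-36230425, plus strand: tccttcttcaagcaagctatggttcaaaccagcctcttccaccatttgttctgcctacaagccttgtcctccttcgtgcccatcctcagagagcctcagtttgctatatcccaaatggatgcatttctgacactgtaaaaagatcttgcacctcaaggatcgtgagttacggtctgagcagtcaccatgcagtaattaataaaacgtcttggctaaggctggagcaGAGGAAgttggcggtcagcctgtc
Hpgd, chr8:56294302-56294551, plus strand: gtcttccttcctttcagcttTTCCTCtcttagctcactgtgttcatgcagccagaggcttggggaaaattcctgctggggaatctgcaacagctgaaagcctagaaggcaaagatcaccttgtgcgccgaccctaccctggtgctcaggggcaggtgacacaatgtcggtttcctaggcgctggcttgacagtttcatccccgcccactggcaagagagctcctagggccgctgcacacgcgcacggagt
Alox12b, chr11:69156822-69157071, plus strand: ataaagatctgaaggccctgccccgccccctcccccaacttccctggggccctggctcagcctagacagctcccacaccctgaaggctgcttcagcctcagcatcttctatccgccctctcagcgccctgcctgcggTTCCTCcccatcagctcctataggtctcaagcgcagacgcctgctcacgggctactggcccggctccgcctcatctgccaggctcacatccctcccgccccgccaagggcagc
Ptgds, chr2:25469750-25469999, minus strand: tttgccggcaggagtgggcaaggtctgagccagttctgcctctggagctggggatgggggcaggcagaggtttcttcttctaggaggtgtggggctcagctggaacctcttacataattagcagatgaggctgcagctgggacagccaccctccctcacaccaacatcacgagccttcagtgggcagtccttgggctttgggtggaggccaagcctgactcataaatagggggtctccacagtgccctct

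Ptgds was the dominant transcript of the group in cortex. Levels between genes were compared as library-scaled CPM (the usual depth-adjusted read count) per kilobase of exon. On that scale the median over the 26 libraries was 192 for Ptgds, which encodes the lipocalin-type prostaglandin D2 synthase. The next 4 genes lay close together, with medians of 6.08 for Alox5ap, 5.98 for Hpgd, 5.38 for Ptgs1 and 5.29 for Ptgs2, and their libraries overlapped. Hpgds followed at 3.45, Alox12b at 1.78, Ptges at 1.67, Pla2g5 at 0.899 and Alox5 at 0.178. The order below Ptgds depended on the surgery. In stroke cortex after 6 weeks of high-fat diet the highest group means after Ptgds were 7.79 ± 2.16 for Alox5ap, 6.19 ± 0.330 for Hpgd and 5.63 ± 0.337 CPM per kilobase for Ptgs1 (SD, n = 6), and these neighbours overlapped within their spread. In sham cortex of the same diet Ptgs2 came next after Ptgds at 5.10 ± 1.18, followed by Ptgs1 at 4.13 ± 0.332 and Alox12b at 3.26 ± 0.485 CPM per kilobase (SD, n = 3), while Alox5ap stood at 2.06 ± 0.648 and Hpgds at 1.23 ± 0.117. Alox5 was lowest in every group and rested on 3 to 32 counts per library.

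**Figure D1:**
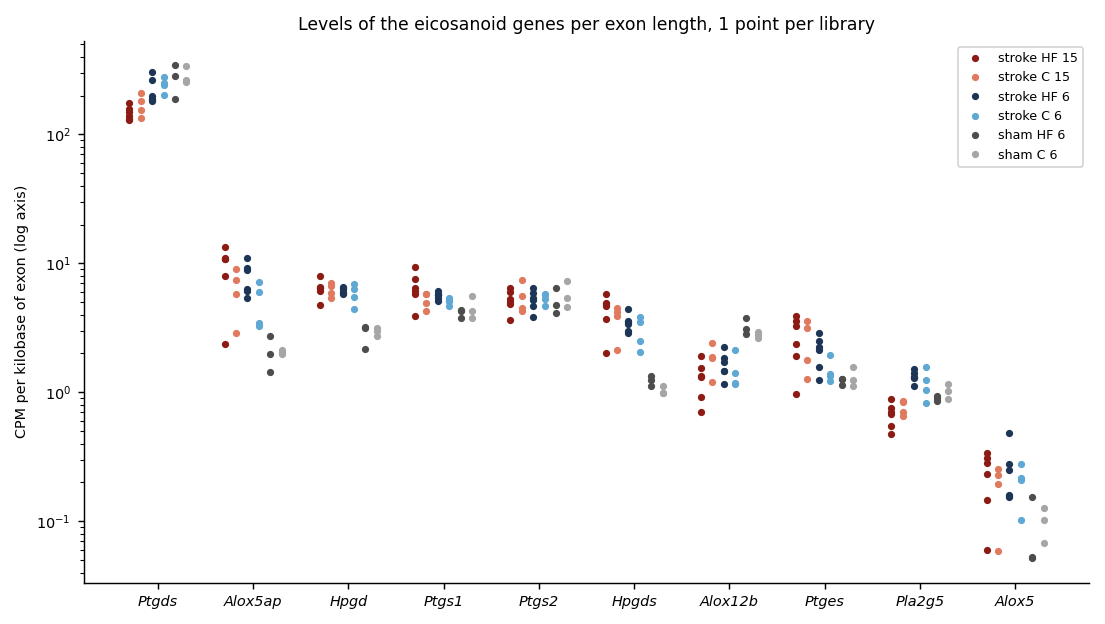
Level of each gene in CPM per kilobase of exon on a log axis, 1 point per library, with the 6 groups side by side in each column. Ptgds stands apart at a median of 192, Alox5 is lowest at 0.178, and the 4 genes after Ptgds overlap.

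Library quality touches these genes in 3 ways. Each library held 11400882 to 16962682 counts in genes. One 15-week stroke library of each diet stood apart, with a summed level of 8 microglia markers of 378 CPM (high-fat, replicate 1) and 404 CPM (control, replicate 3), against 731 to 990 CPM in the other 8 libraries of 15 weeks and 285 to 325 CPM in the 6 sham libraries. Of the 9 libraries of 6 weeks of high-fat diet, 2 stood out for choroid plexus genes, at 945 CPM in stroke replicate 6 and 270 CPM in sham replicate 2. Lesser sums were 54.9 CPM in stroke replicate 4 and 35.7 CPM in sham replicate 3 of that diet and time. Sham replicate 2 of the control diet had 81.6 CPM. The remaining libraries had 8.02 to 28.5 CPM. Alternatives without libraries high in choroid plexus genes left out only the pair at 945 and 270 CPM. The labels do not say whether libraries are separate mice, so p-values measure the spread between libraries.

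Among the prostanoid genes, the microglial synthase Hpgds rose after stroke on both diets, while the cyclooxygenases and the prostaglandin E synthase did not pass the test. Hpgds makes prostaglandin D2 in microglia and macrophages. At 6 weeks of high-fat diet its lowest, median and highest values were 18.4, 22.2 and 28.7 CPM in the 6 stroke libraries, against 8.65, 7.94 and 7.15 CPM in the 3 sham libraries. At 6 weeks of control diet it had 16.1, 24.8, 22.4 and 13.2 CPM in stroke libraries, against 6.30, 7.20 and 6.34 CPM in sham libraries. Every stroke library was above every sham library on each diet, as for 15.8% of all genes tested under high-fat and 14.9% under control feeding. The log2 fold change was 1.49 ± 0.28 under high-fat feeding (SE; adjusted p = 0.000793, edgeR quasi-likelihood test with Benjamini-Hochberg adjustment over all genes tested) and 1.53 ± 0.30 under control feeding (adjusted p = 0.00541).

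Ptgs1, the constitutive cyclooxygenase, which microglia express in brain, had somewhat higher values after stroke under high-fat feeding. Its stroke libraries had a lowest, median and highest value of 19.8, 22.2 and 23.6 CPM, against 16.5, 17.0 and 14.6 CPM in sham libraries. The groups did not overlap, as for 15.8% of all genes tested in that direction, and the log2 fold change of 0.45 ± 0.17 missed the threshold with edgeR (adjusted p = 0.0592), although DESeq2 (adjusted p = 0.0463) and an edgeR fit of only the groups compared (adjusted p = 0.00151) called it. Under control feeding Ptgs1 had 20.0, 19.7, 20.9 and 18.04 CPM in stroke libraries, against 21.8, 16.7 and 14.6 CPM in sham libraries, which overlapped (log2 fold change 0.15 ± 0.18, edgeR adjusted p = 0.670).

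Ptgs2, the inducible cyclooxygenase, which cortical neurons also express at rest, did not stand out in any group. Under high-fat feeding Ptgs2 had 17.6, 24.1 and 29.3 CPM as the lowest, median and highest of the stroke libraries, against 21.9, 29.4 and 18.8 CPM in sham libraries. Under control feeding Ptgs2 had 24.1, 26.6, 26.2 and 21.5 CPM in stroke libraries, against 33.4, 24.6 and 20.9 CPM in sham libraries. The groups overlapped on both diets. The log2 fold changes were 0.03 ± 0.19 (edgeR adjusted p = 0.932) under high-fat feeding and -0.10 ± 0.20 (adjusted p = 0.830) under control feeding, and their signs turned when single libraries were left out.

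Ptges makes prostaglandin E2, the prostaglandin of fever and inflammatory pain. Under high-fat feeding its stroke libraries had a lowest, median and highest value of 4.91, 8.60 and 11.3 CPM, against 4.97, 4.96 and 4.46 CPM in sham libraries. Under control feeding Ptges had 4.78, 7.71, 5.46 and 5.27 CPM in stroke libraries, against 6.16, 4.90 and 4.40 CPM in sham libraries. Under high-fat feeding all but replicate 6 of the stroke libraries, which carried choroid plexus genes, exceeded the sham libraries. The log2 fold change of 0.78 ± 0.36 did not pass the test (edgeR adjusted p = 0.115), nor did the 0.93 ± 0.44 without both libraries with choroid plexus genes (adjusted p = 0.167), but in a fit of only the groups compared it did (0.80 ± 0.24, adjusted p = 0.0283). Under control feeding it was 0.18 ± 0.38 (adjusted p = 0.834).

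Ptgds and Hpgd were among the genes the group was built around, so their differences are described and not tested. Hpgd, which inactivates prostaglandins by oxidising their 15-hydroxyl group, had a lowest, median and highest value of 9.70, 10.4 and 11.1 CPM in stroke libraries under high-fat feeding, against 5.33, 3.62 and 5.45 CPM in sham libraries. Under control feeding Hpgd had 9.28, 11.7, 10.7 and 7.44 CPM in stroke libraries, against 5.33, 5.04 and 4.60 CPM in sham libraries. No stroke library reached down to a sham library on either diet, which held for 15.8% and 14.9% of all genes tested in that direction under high-fat and control feeding. The log2 fold changes were 1.12 ± 0.16 under high-fat feeding and 0.97 ± 0.16 under control feeding (SE).

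Ptgds had a lowest, median and highest value of 299.9, 317 and 499.5 CPM in stroke libraries under high-fat feeding, against 565, 309 and 463 CPM in sham libraries. Under control feeding Ptgds had 400.3, 414, 335 and 463 CPM in stroke libraries, against 435, 561 and 419.7 CPM in sham libraries. Stroke and sham overlapped on both diets, and the log2 fold changes were -0.30 ± 0.18 and -0.23 ± 0.20 for the high-fat and the control diet. Ptgds did not follow choroid plexus genes in 1 direction, with 303 CPM in stroke replicate 6 and 309 CPM in sham replicate 2 under high-fat feeding, both low in their groups, and 561 CPM, the highest of its group, in sham replicate 2 under control feeding, where these genes summed to 81.6 CPM. Without the pair under high-fat feeding the log2 fold change was -0.44 ± 0.19.

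**Figure D2:**
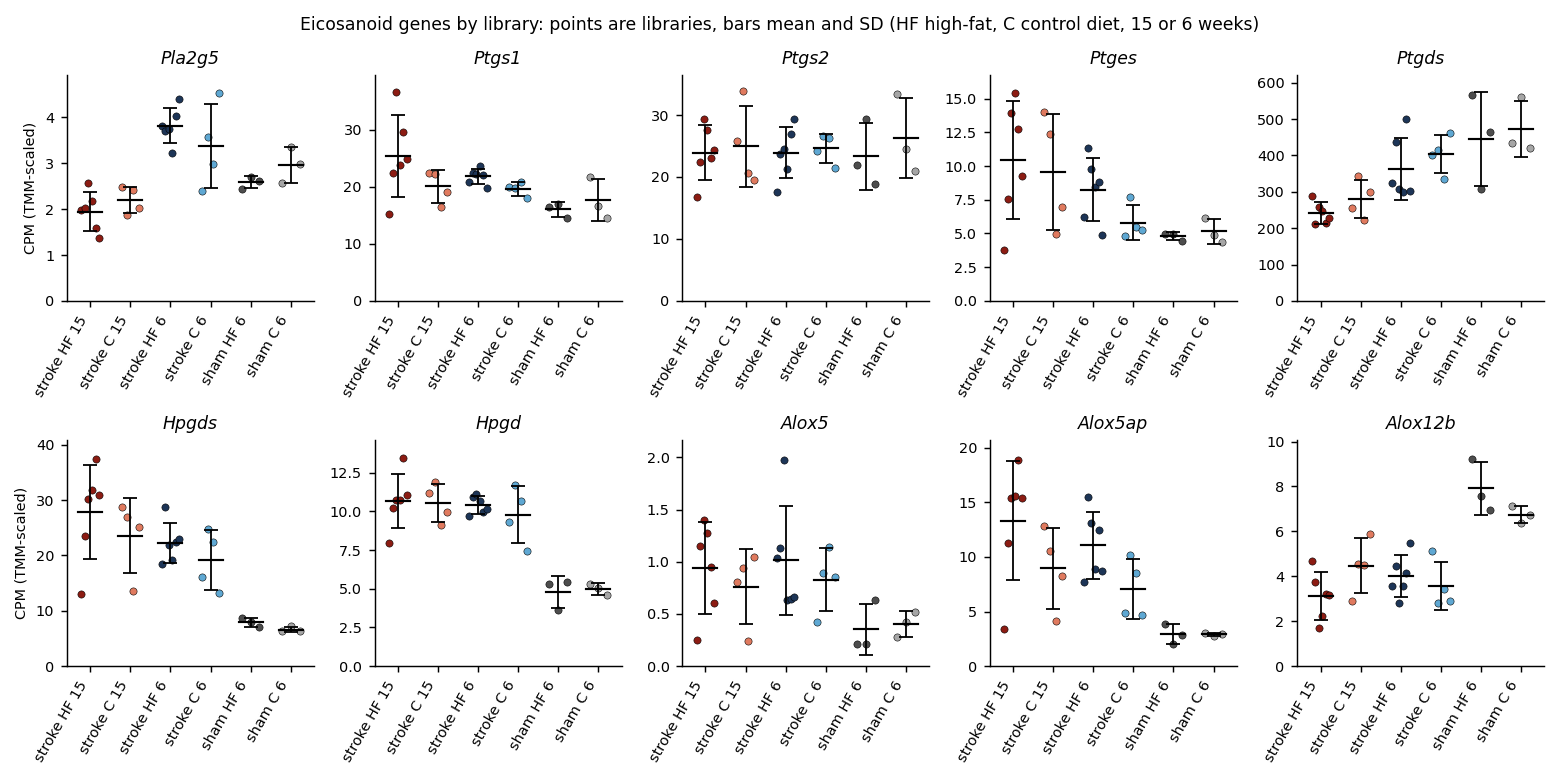
CPM of the 10 genes in each library (points), with the mean and SD of each group (bars), for stroke and sham (HF high-fat, C control diet, 15 or 6 weeks of feeding). All stroke libraries of 6 weeks lie above the sham libraries for Hpgds and Hpgd and below them for Alox12b, while Ptgs2 overlaps in all groups.

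Of the leukotriene genes, Alox5ap rose under high-fat feeding, and Alox5 with it at very low counts. Alox5ap encodes the membrane protein that hands arachidonic acid to 5-lipoxygenase. Under high-fat feeding its lowest, median and highest values were 7.70, 10.7 and 15.5 CPM in stroke libraries, against 3.89, 2.06 and 2.83 CPM in sham libraries. Under control feeding Alox5ap had 4.85, 10.2, 8.54 and 4.67 CPM in stroke libraries, against 3.04, 2.80 and 2.91 CPM in sham libraries. The groups did not overlap on either diet, as for 15.8% and 14.9% of all genes tested in that direction under high-fat and control feeding. The log2 fold change was 1.92 ± 0.43 under high-fat feeding (edgeR adjusted p = 0.00324) and 1.27 ± 0.46 under control feeding (adjusted p = 0.0889), where DESeq2 (adjusted p = 0.0272) and an edgeR fit of only the groups compared (adjusted p = 0.0115) called it.

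Alox5, the 5-lipoxygenase itself, had 1.03, 1.13, 1.97, 0.634, 0.641 and 0.659 CPM in stroke libraries under high-fat feeding, against 0.216, 0.213 and 0.637 CPM in sham libraries. Under control feeding Alox5 had 0.422, 0.891, 1.15 and 0.856 CPM in stroke libraries, against 0.277, 0.420 and 0.518 CPM in sham libraries. The lowest stroke library and the highest sham library were nearly level under high-fat feeding. Sham libraries held 3 to 9 counts under high-fat and 4 to 8 under control feeding, below the filter's minimum count of 10. Alox5 therefore passed the filter on low counts through stroke libraries alone, and its p-values carry that limit. The log2 fold change was 1.49 ± 0.53 under high-fat feeding (edgeR adjusted p = 0.0433) and 1.00 ± 0.56 under control feeding (adjusted p = 0.292). The call under high-fat feeding was lost in 10 of 16 alternatives, among them leaving out stroke replicate 1 (adjusted p = 0.0542), 2 (0.0691) or 3 (0.101) or sham replicate 1 (0.151) or 2 (0.180), or both libraries with choroid plexus genes (0.159).

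Alox12b, a lipoxygenase known chiefly for building the skin's water barrier, was lower after stroke on both diets and was one of the genes the group was chosen for. Under high-fat feeding Alox12b had 2.83, 3.87 and 5.49 CPM as the lowest, median and highest of the stroke libraries, against 9.22, 7.59 and 6.93 CPM in sham libraries. Under control feeding Alox12b had 5.13, 2.80, 3.43 and 2.90 CPM in stroke libraries, against 7.13, 6.36 and 6.73 CPM in sham libraries. The groups did not overlap, which held for 10.7% and 11.6% of all genes tested in that direction under high-fat and control feeding. The log2 fold changes were -0.98 ± 0.23 and -0.92 ± 0.26 (SE).

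Pla2g5, a secreted phospholipase that can release arachidonic acid, had 3.23, 3.79 and 4.39 CPM as the lowest, median and highest of the stroke libraries under high-fat feeding, against 2.45, 2.69 and 2.62 CPM in sham libraries. Under control feeding Pla2g5 had 2.39, 3.57, 2.99 and 4.54 CPM in stroke libraries, against 2.56, 3.36 and 2.98 CPM in sham libraries. The groups were apart under high-fat feeding, as for 15.8% of all genes tested in that direction, and overlapped under control feeding, with log2 fold changes of 0.56 ± 0.19 and 0.19 ± 0.20 (SE), given without a test.

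Counted over the 6 tested genes, 3 rose under high-fat feeding (Hpgds, Alox5ap and Alox5), where 14.2% of all genes tested rose, and 1 rose under control feeding (Hpgds), where 5.1% did. Of these, Alox5 had passed the filter on low counts through stroke libraries alone. None fell on either diet, where 8.85% and 2.57% of all genes tested fell under high-fat and control feeding, and edgeR gave Ptgs2 the only negative estimate, under control feeding. The median log2 fold change of the 6 was 1.14 under high-fat feeding and 0.59 under control feeding, against -0.02 and 0.00 over all genes tested. In the test of surgery by diet, edgeR called none of the 6 and 0% of all genes, and the smallest adjusted p of the 6 was 0.838 for Ptgs1. The largest difference of the 6 was 0.65 for Alox5ap and the smallest -0.04 for Hpgds on the log2 scale. Over the 56 pathway genes tested, 4 had an unadjusted p under 0.05 in that test, where 5.6% of all genes did, and no pathway gene was called by DESeq2 or voom.

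**Figure D3:**
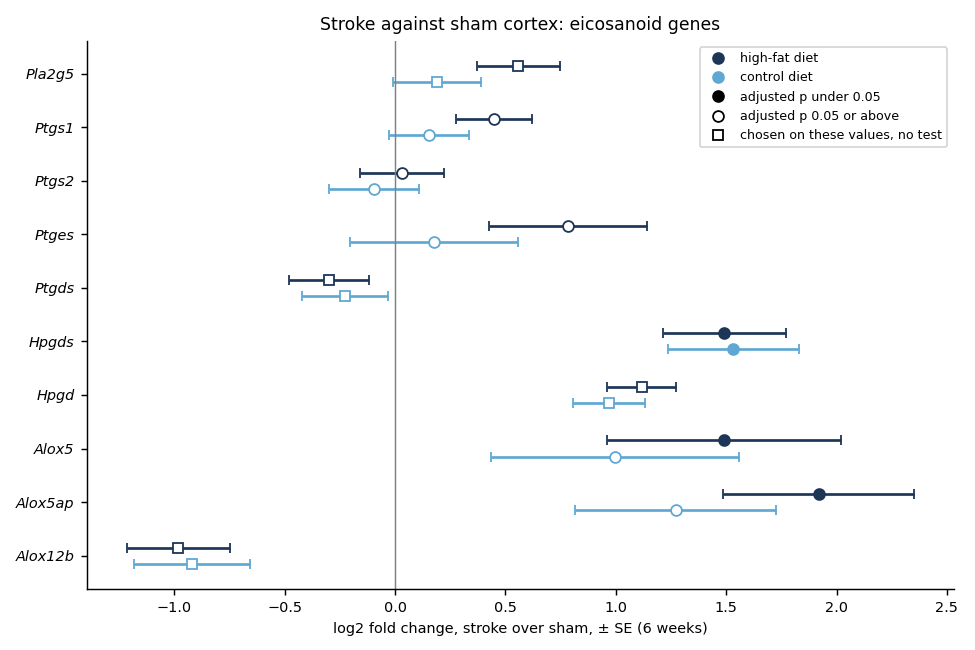
Log2 fold change of stroke over sham after 6 weeks for the 10 genes, with the SE, under high-fat feeding (dark) and the control diet (light); filled circles passed an adjusted p of 0.05, open circles did not, and squares are the 4 genes chosen on these values. Hpgds is filled on both diets, Alox5ap and Alox5 under high-fat feeding, and Alox12b lies near -1 on both.

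Summed markers of microglia, monocytes, border macrophages, neutrophils, endothelium, leptomeninges and mural cells moved with these differences, while those of T cells did not. Of all genes tested, 14.2% rose and 8.85% fell after stroke under high-fat feeding, and 5.1% rose and 2.57% fell under control feeding. In bulk tissue, more or fewer cells of a type and more or less RNA per cell cannot be told apart. All 8 microglia markers rose after stroke on both diets, and their summed level was 690 to 885 CPM in stroke libraries against 285 to 325 CPM in sham libraries under high-fat feeding, and 535 to 821 CPM against 299 to 320 CPM under control feeding. Monocyte markers summed to 13.98 to 40.98 CPM in stroke against 0.354 to 0.426 CPM in sham libraries under high-fat feeding, and to 6.52 to 19.5 CPM against 0.484 to 0.909 CPM under control feeding. Under high-fat feeding 5 of 5 monocyte markers rose and 2 of them were at 0 in every sham library. Under control feeding 3 of 5 rose. Monocyte markers were so low in sham libraries that all 5 passed the filter on low counts through stroke libraries alone, which limits these calls. Border macrophage markers summed to 31.5 to 69.6 CPM against 15.7 to 20.0 CPM under high-fat feeding, where 4 of 6 rose, and to 30.4 to 45.6 CPM against 16.0 to 20.3 CPM under control feeding, where 1 of 6 rose. Neutrophil markers summed to 12.8 to 19.4 CPM against 3.96 to 4.82 CPM under high-fat feeding, where 3 of 4 tested rose, and to 8.69 to 13.1 CPM against 4.08 to 4.76 CPM under control feeding, where 0 of 4 passed the test. Excitatory neuron markers summed to 1667 to 1897 CPM in stroke against 2059 to 2544 CPM in sham libraries under high-fat feeding, where 4 of 7 fell, and to 1574 to 1920 CPM against 1992 to 2206 CPM under control feeding, where 0 of 7 passed the test. Endothelial markers summed to 225 to 293 CPM in stroke against 164 to 198 CPM in sham libraries under high-fat feeding, where 4 of 7 rose, and to 223 to 245 CPM against 181 to 201 CPM under control feeding, where 1 of 7 rose. All 5 blood cell markers rose under high-fat feeding and 0 of 5 passed the test under control feeding. T cell markers summed to 1.61 to 7.08 CPM in stroke against 1.21 to 7.22 CPM in sham libraries under high-fat feeding. Under control feeding they summed to 3.02 to 9.30 CPM against 2.52 to 7.38 CPM. The 1 T cell marker tested passed on neither diet. Mast cells, which also make prostaglandin D2 with Hpgds, were near absent, with 5 markers summing to at most 0.352 CPM in any library. The part of these cell markers in the results for Hpgds, Alox5ap, Alox5, Hpgd and Alox12b was not tested.

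Set against the microglia marker sum of the same library, the genes that stood higher after stroke gave shares that were higher, similar or lower than in sham libraries. Hpgds amounted to 2.92 ± 0.298% of the sum in stroke libraries (SD, n = 6) and 2.63 ± 0.110% in sham libraries (n = 3) under high-fat feeding, and to 2.86 ± 0.306% (n = 4) and 2.13 ± 0.166% (n = 3) under control feeding. Alox5ap amounted to 1.44 ± 0.277% in stroke and 0.965 ± 0.248% in sham libraries under high-fat feeding, and to 1.04 ± 0.213% and 0.940 ± 0.0419% under control feeding. For Hpgd the share was 1.38 ± 0.107% in stroke and 1.60 ± 0.339% in sham libraries under high-fat feeding and 1.48 ± 0.0953% and 1.60 ± 0.0645% under control feeding. Ptgs1 had a lower share in stroke than in sham libraries, with 2.89 ± 0.238% and 5.34 ± 0.424% under high-fat feeding and 3.04 ± 0.481% and 5.67 ± 1.02% under control feeding. These shares are descriptions, and the difference between genes was not tested.

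Across libraries of the same group, the genes differed in the markers they followed. The measure was Pearson's r between log2 CPM deviations from the group means over all 26 libraries, which share depth and tissue composition, and it is a description. Hpgds and Alox5ap followed the microglia marker sum most closely, with r of 0.961 and 0.955. Without the pair of 15-week libraries low in microglia markers these were 0.911 and 0.893. The 2 genes followed each other at 0.938 (0.834 without that pair). Hpgds also had r of 0.931 with neutrophil, 0.924 with monocyte and 0.885 with border macrophage markers, and Alox5ap 0.915, 0.931 and 0.900. Without the pair these were 0.809, 0.799 and 0.680 for Hpgds and 0.734, 0.783 and 0.721 for Alox5ap. The named genes most like Hpgds were Itgb5 (r = 0.969), the macrophage receptor Adgre1 (0.967), the lysosomal protease Ctsl (0.966), Apoc2 (0.964) and Hexa (0.963). Those most like Alox5ap were Clic1 (0.981), Anxa3 (0.974), Srgn (0.969), the mitochondrial protein Tspo (0.969) and the microglial protease Ctss (0.966). Ptges was most like the endothelial adhesion gene Pecam1 (0.965, or 0.934 without the pair), ahead of Cast, Entpd1, Igfbp7 and Cd93. Among the marker sums Ptges had r of 0.907 with border macrophages, 0.893 with endothelium, 0.875 with neutrophils, 0.865 with monocytes and with mural cells, and 0.849 with microglia. Without the pair these were 0.794, 0.822, 0.754, 0.699, 0.807 and 0.660.

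Ptgs1 had r of 0.722 and Alox5 of 0.655 with the microglia sum, but without the pair these were 0.324 and 0.129. Hpgd had r of 0.739 with it (0.704 without the pair) and was most like Lap3 (0.857), the chemokine Ccl9 (0.855), Smim3, Dynlt1f and Rps28. Ptgds was most like Fgfbp1 (0.807), the leptomeningeal extracellular matrix gene Ogn (0.725), Sdhaf1 (0.724), the meningeal transporter Slc6a13 (0.703) and Lsm4 (0.685), while its r with the leptomeninges marker sum was 0.265 and with choroid plexus -0.427. Without the pair its r with these marker sums was 0.421 and -0.451. Alox12b was most like Mtfp1 (0.840), Cnrip1 (0.830), the thyroid hormone receptor Thra (0.811), Gprin1 and Pex6. Among the marker sums Alox12b had r of -0.681 with endothelium, 0.551 with excitatory neurons and -0.488 with border macrophages. Without the pair these were -0.637, 0.457 and -0.371. Ptgs2 was most like Akap13 (0.872), Gxylt2, Lrrc32, Plod2 and Lrp5, and Pla2g5 had no gene above the 0.720 of Kdm6a. Ptgs1 was most like Mtmr11 (0.911), Wdhd1, Rhbdf1, Bmp1 and Ccdc80, and Alox5 like Bora (0.826), Cdca2, Tagln, Aspm and Rad9a.

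**Figure D4:**
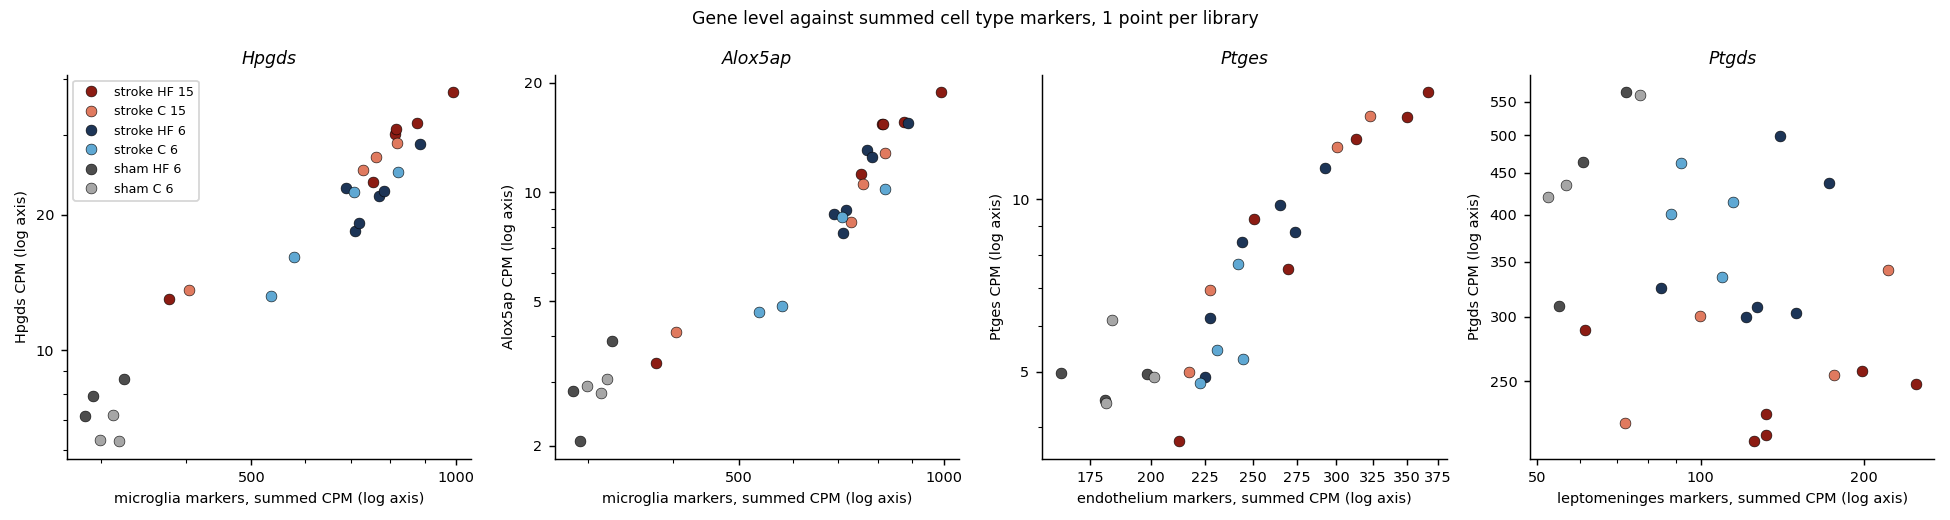
CPM of Hpgds, Alox5ap, Ptges and Ptgds in each library against the summed CPM of markers of microglia, endothelium or leptomeninges, both axes on a log scale and 1 point per library. Hpgds and Alox5ap climb with microglia markers through all groups, Ptges climbs with endothelial markers, and Ptgds shows no such climb with leptomeningeal markers, its highest library being a sham library at 565 CPM.

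In the wider pathway, the phospholipase Pla2g4a, the leukotriene genes Ltc4s and Cyp4f18 and the receptor Cysltr1 rose after stroke and the synthase Fam213b fell, on both diets. Under high-fat feeding the first 4 kept their calls in all 17 alternatives run, and Fam213b lost its call in 4. Under control feeding Pla2g4a lost its call in 8 of 14 alternatives, Ltc4s in 9, Cyp4f18 in 7, Cysltr1 in 8 and Fam213b in 5. Lists of 66 further genes of arachidonate release, prostanoid synthesis, breakdown, lipoxygenases, leukotrienes, the epoxygenase branch and receptors were drawn up, and 50 of these passed the filter on low counts. The other 16, including Alox15, Mgst2, Ptgir, Cysltr2 and Ltb4r1, were too low to test, at 1.11 CPM or less in every library. Under high-fat feeding 15 of 50 rose and 2 fell after stroke, where 14.2% and 8.85% of all genes tested did so. Under control feeding 4 of 50 rose and 2 fell, where 5.1% and 2.57% did so. The median log2 fold change of the 50 was 0.14 under high-fat feeding and 0.07 under control feeding, against -0.02 and 0.00 over all genes tested. Of 7 leukotriene genes, 5 rose under high-fat feeding and 2 under control feeding, and of 9 receptors 4 and 1 rose. Among the 7 leukotriene genes, Cyp4f18 and Dpep2 had at most 1 and 2 counts in any sham library. Both passed the filter on low counts through stroke libraries alone. Of 14 genes of arachidonate release 3 rose and 1 fell under high-fat feeding, and 1 rose and 1 fell under control feeding. Of 7 prostanoid synthases 2 rose and 1 fell under high-fat feeding, and 1 fell under control feeding. Of 4 transport and breakdown genes 1 rose under high-fat feeding. None of 4 other lipoxygenase and peroxide genes or of 5 epoxygenase genes passed the test on either diet, with edgeR.

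Cyp4f18, which inactivates leukotriene B4 in myeloid cells, was nearly confined to stroke libraries. It passed the filter on low counts through those libraries alone, and its p-values carry that limit. Under high-fat feeding Cyp4f18 averaged 3.41 ± 1.35 CPM in stroke libraries (SD, n = 6; 327 counts) and had 0 counts in the 3 sham libraries, so it was at least 47.8-fold higher, taking 3 counts over the sham group as the floor (edgeR adjusted p = 0.00113). Under control feeding Cyp4f18 averaged 1.85 ± 0.787 CPM in stroke libraries (n = 4; 104 counts) and had 1 count in the sham libraries, a ratio of 81.4 with a 95% exact interval of 14.3 to 3250 that covers counting error only (edgeR adjusted p = 0.0199). Ltc4s, which makes leukotriene C4, averaged 4.85 ± 0.771 CPM in stroke and 1.52 ± 0.468 CPM in sham libraries under high-fat feeding (log2 fold change 1.67 ± 0.34, edgeR adjusted p = 0.00134). Under control feeding Ltc4s averaged 3.495 ± 0.612 CPM in stroke and 1.53 ± 0.195 CPM in sham libraries (1.18 ± 0.36, adjusted p = 0.0438). Leaving out stroke replicate 2 or any of the 3 sham libraries ended the control-diet call of both genes, as did leaving out stroke replicate 3 or 4 for Ltc4s, with edgeR adjusted p of 0.0637 to 0.163 for Ltc4s and 0.0644 to 0.0894 for Cyp4f18.

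Cysltr1, the receptor for cysteinyl leukotrienes, averaged 4.47 ± 1.12 CPM in stroke and 1.19 ± 0.249 CPM in sham libraries under high-fat feeding (log2 fold change 1.90 ± 0.40, edgeR adjusted p = 0.00178), and 3.66 ± 0.790 and 1.40 ± 0.321 CPM under control feeding (1.38 ± 0.41, adjusted p = 0.0411). Pla2g4a, the cytosolic phospholipase that feeds both branches, averaged 14.2 ± 2.12 CPM in stroke and 4.79 ± 0.618 CPM in sham libraries under high-fat feeding (1.57 ± 0.34, edgeR adjusted p = 0.00243), and 11.0 ± 3.10 and 4.54 ± 1.08 CPM under control feeding (1.27 ± 0.36, adjusted p = 0.0331). Leaving out stroke replicate 2 or 3 or any of the 3 sham libraries ended the control-diet calls of both, with edgeR adjusted p of 0.0866 to 0.158 for Cysltr1 and 0.0686 to 0.157 for Pla2g4a. Ptgr1, which acts on inactivated prostaglandins and leukotriene B4, rose under high-fat feeding by 1.98 ± 0.47 on the log2 scale (edgeR adjusted p = 0.00422). Cmklr1, the chemerin and resolvin receptor, rose there by 1.55 ± 0.38 (edgeR adjusted p = 0.00536). These 2 genes averaged 3.04 ± 0.696 and 5.23 ± 1.41 CPM in stroke libraries, against 0.760 ± 0.0777 and 1.78 ± 0.445 CPM in sham libraries.

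A few pathway genes fell after stroke. Fam213b, a prostamide and prostaglandin F synthase, averaged 38.0 ± 3.02 CPM in stroke and 45.6 ± 4.29 CPM in sham libraries under high-fat feeding (log2 fold change -0.26 ± 0.08, edgeR adjusted p = 0.0263), and 38.2 ± 3.53 and 48.2 ± 0.509 CPM under control feeding (-0.33 ± 0.09, adjusted p = 0.0280). Its call ended without stroke replicate 3 or sham replicate 1 or 3 under high-fat feeding (edgeR adjusted p of 0.0576, 0.0662 and 0.192), and without stroke replicate 2 or 3 or any of the 3 sham libraries under control feeding (0.0819 to 0.0967). Pla2g3, a secreted phospholipase, fell under high-fat feeding (-0.83 ± 0.24, adjusted p = 0.0159), and without sham replicate 3 its adjusted p was 0.197. Mgll, the lipase that frees arachidonic acid from the endocannabinoid 2-arachidonoylglycerol in neurons, averaged 208 ± 19.5 CPM in stroke and 269.6 ± 14.5 CPM in sham libraries under control feeding (-0.37 ± 0.09, adjusted p = 0.0184), and this call ended without stroke replicate 2 or 3 or sham replicate 1 or 2 (0.0610 to 0.0835).

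The number of calls rested on few libraries. Over the 56 pathway genes tested (the 6 and the 50), edgeR called 20 under high-fat feeding, and 12 without sham replicate 2 or without both libraries with choroid plexus genes. The share of fragments outside genes differed between the surgeries, at 30.6 ± 1.30% in stroke (SD, n = 6) and 36.6 ± 1.99% in sham libraries (n = 3) under high-fat feeding and 29.9 ± 2.74% (n = 4) and 34.4 ± 1.32% (n = 3) under control feeding, and with it as a covariate edgeR called 9 and 3 pathway genes. Under control feeding it called 7 without the covariate, but 1 without stroke replicate 2, sham replicate 1 or sham replicate 2, and 2 without stroke replicate 3 or sham replicate 3. Hpgds was called in all of these.

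**Figure D5:**
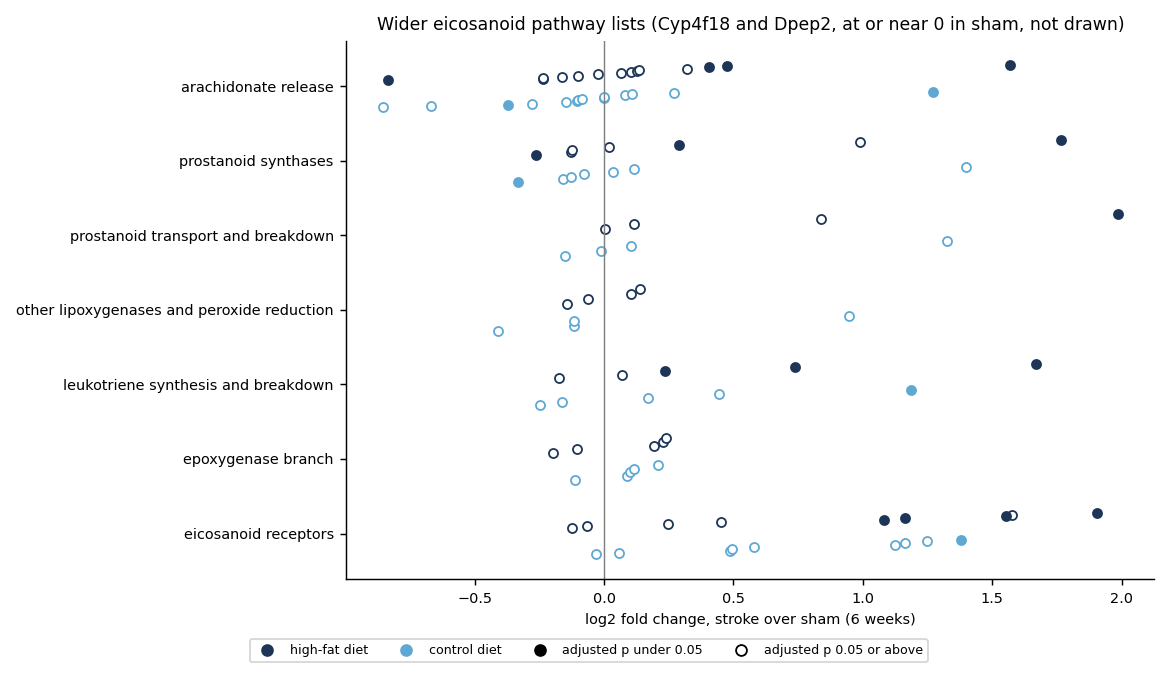
Log2 fold change of stroke over sham after 6 weeks for the wider lists, 1 point per gene, under high-fat feeding (dark) and control diet (light); filled points passed an adjusted p of 0.05, and Cyp4f18 and Dpep2, at or near 0 counts in sham libraries, are not drawn. Filled points gather to the right of 0 among leukotriene genes and receptors, and none is seen in the epoxygenase branch.

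Diet alone moved none of the genes past the threshold. In stroke cortex after 15 weeks, after 6 weeks, and in sham cortex after 6 weeks, edgeR called 0% of all genes, none of the 6 tested genes and none of the 50 wider ones. Of all genes, DESeq2 called 10, 0 and 2 in these comparisons. At an unadjusted p under 0.05, edgeR had 4, 3 and 2 of the 56 pathway genes in these comparisons, where 7.96%, 6.99% and 4.79% of all genes did, and neither DESeq2 nor voom called any of the 56. Among the 10 genes, Alox5ap had the highest estimate in stroke cortex at both times. After 15 weeks it had a lowest, median and highest value of 3.37, 15.4 and 18.9 CPM under high-fat feeding, against 12.8, 10.6, 4.10 and 8.26 CPM under control feeding (log2 difference 0.57 ± 0.34, edgeR adjusted p = 0.685). Its lowest value on each diet was that of the library low in microglia markers, and without this pair the difference was 0.55 ± 0.25 (adjusted p = 0.543). After 6 weeks its values under high-fat and control feeding, given above, also overlapped (0.65 ± 0.35, adjusted p = 0.667). In sham cortex the estimates of the 10 genes lay between -0.20 for Pla2g5 and 0.26 for Hpgds.

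Ptgs1 had 15.2, 24.4 and 36.7 CPM as its lowest, median and highest value under high-fat feeding at 15 weeks, against 22.4, 22.3, 16.5 and 19.1 CPM under control feeding (0.34 ± 0.15, edgeR adjusted p = 0.609), or 0.38 ± 0.13 without the same pair, which did not pass the test either. Alox12b, given without a test, had 1.71, 3.20 and 4.69 CPM under high-fat feeding at 15 weeks, against 2.92, 4.57, 4.50 and 5.90 CPM under control feeding (-0.52 ± 0.23, or -0.65 ± 0.25 without the pair of libraries low in microglia markers). Both genes overlapped between the diets. The wider genes with the smallest p were the prostacyclin synthase Ptgis, the lipoxygenase Alox8 and Cyp4x1 in stroke cortex at 6 weeks, Fam213b, Mgll and the carbonyl reductase Cbr1 in stroke cortex at 15 weeks, and the lipid peroxidase Gpx4, Akr1b3 and Ptgr2 in sham cortex. Ptgis averaged 1.61 ± 0.248 CPM under high-fat feeding and 0.933 ± 0.398 CPM under control feeding (0.76 ± 0.33, edgeR adjusted p = 0.667). In the test of surgery by diet they were Akr1b3 (0.25 ± 0.11, adjusted p = 0.832), the diacylglycerol lipase Daglb and Gpx4.

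Between 15 and 6 weeks of feeding, Ptgds and Pla2g5 stood lower at 15 weeks in stroke cortex, and none of the 6 tested genes passed the test. The percentages of all genes called were 2.35% under high-fat feeding and 0.564% under control feeding. Pla2g5 had 1.36, 2.00 and 2.57 CPM as the lowest, median and highest value at 15 weeks of high-fat diet, against 3.23, 3.79 and 4.39 CPM at 6 weeks. Under control feeding Pla2g5 had 2.48, 1.88, 2.41 and 2.03 CPM at 15 weeks, against 2.39, 3.57, 2.99 and 4.54 CPM at 6 weeks. The times were apart under high-fat feeding, as for 1.23% of all genes tested in that direction, and overlapped by 1 library of 6 weeks under control feeding. The log2 differences were -0.97 ± 0.16 and -0.62 ± 0.19 (SE), and without the pair of libraries low in microglia markers -0.96 ± 0.17 and -0.66 ± 0.21.

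Ptgds had 211, 238 and 289 CPM as the lowest, median and highest value at 15 weeks of high-fat diet, against 299.9, 317 and 499.5 CPM at 6 weeks. Under control feeding Ptgds had 254, 342, 222 and 300.7 CPM at 15 weeks, against 400.3, 414, 335 and 463 CPM at 6 weeks. The times were apart under high-fat feeding, as for 1.23% of all genes tested in that direction, and overlapped under control feeding by 1 library. The log2 differences were -0.59 ± 0.15 and -0.53 ± 0.18, or -0.63 ± 0.16 and -0.42 ± 0.20 without the pair. Markers of leptomeninges, where Ptgds is made, summed to 61.3 to 249 CPM at 15 weeks against 84.5 to 173 CPM at 6 weeks under high-fat feeding, and 72.7 to 222 against 88.1 to 115 CPM under control feeding, and 0 of 8 passed the test on either diet. Oligodendrocyte markers summed to 3998 to 6062 CPM at 15 weeks against 4200 to 5362 CPM at 6 weeks under high-fat feeding, and 3551 to 4858 against 3743 to 5135 CPM under control feeding, and 0 of 8 passed the test on either diet. Choroid plexus markers summed to 8.81 to 23.9 CPM at 15 weeks against 8.02 to 945 CPM at 6 weeks under high-fat feeding. Their medians were 13.6 and 13.7 CPM. Under control feeding they summed to 10.6 to 28.5 against 8.36 to 18.9 CPM. The median log2 difference of the 7 tested was -1.28 under high-fat and -0.15 under control feeding, and 0 of 7 passed the test on either diet. The share of fragments outside genes was 38.0 ± 4.24% at 15 weeks (SD, n = 6) against 30.6 ± 1.30% at 6 weeks (n = 6) under high-fat feeding, and 35.6 ± 2.92% against 29.9 ± 2.74% under control feeding (n = 4 each). With that share as a covariate the log2 differences under high-fat feeding were -1.21 ± 0.22 for Pla2g5 and -0.46 ± 0.23 for Ptgds.

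Ptges had the highest estimates of the 6 tested genes with longer feeding. It had 3.78, 11.0 and 15.4 CPM as the lowest, median and highest value at 15 weeks of high-fat diet, against 4.91, 8.60 and 11.3 CPM at 6 weeks (log2 difference 0.34 ± 0.27, edgeR adjusted p = 0.539). Under control feeding Ptges had 14.0, 12.4, 4.99 and 6.95 CPM at 15 weeks, against 4.78, 7.71, 5.46 and 5.27 CPM at 6 weeks (0.72 ± 0.34, adjusted p = 0.288). The lowest library at 15 weeks on each diet was the one low in microglia markers, and without this pair the differences were 0.52 ± 0.21 (adjusted p = 0.113) and 0.94 ± 0.28 (adjusted p = 0.0573). The same libraries were lowest at 15 weeks for Hpgds, with 12.99 CPM under high-fat feeding and 13.6 CPM under control feeding, where the others had 23.6 to 37.4 and 25.0 to 28.7 CPM. For Alox5ap they had 3.37 and 4.10 CPM, where the others had 11.3 to 18.9 and 8.26 to 12.8 CPM.

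Of the 50 wider genes, 1 fell with longer feeding under high-fat feeding, where 1.62% of all genes tested fell, and none passed the test under control feeding. It was Ephx2, the soluble epoxide hydrolase that degrades vasodilating epoxides, at 20.2 ± 2.64 CPM at 15 weeks and 25.2 ± 2.31 CPM at 6 weeks (SD, n = 6 each; log2 difference -0.32 ± 0.08, edgeR adjusted p = 0.0366). Leaving out a single library (replicate 3, 4 or 6 of 15 weeks, or 1, 2, 4, 5 or 6 of 6 weeks) ended this call, with adjusted p of up to 0.107, and with adjustment for the share of fragments outside genes it was 0.707. Of the 56 pathway genes, 5 were called without replicate 1 of 15 weeks of high-fat diet, where 1189 of all 16325 genes were called. Without both 15-week libraries low in microglia markers 12 were called under high-fat feeding, against 1712 of all genes, and 2 under control feeding, against 510 of all genes. In control-fed mice edgeR had 11 of the 56 pathway genes at an unadjusted p under 0.05, where 16.8% of all genes did, and neither DESeq2 nor voom called any. The smallest p were those of the prostaglandin transporter Slco2a1 (1.67 ± 0.49, adjusted p = 0.110) and the phospholipases Pla2g4e (0.63 ± 0.19, adjusted p = 0.125) and Pla2g4c (1.49 ± 0.51, adjusted p = 0.157). The difference between the diets in the change with weeks passed the threshold for none of the 56 with edgeR, DESeq2 or voom, where edgeR called 0% of all genes and 1 of the 56 had an unadjusted p under 0.05 with edgeR, where 4.85% of all genes did. Its smallest p among the wider genes was that of Alox8 (-0.56 ± 0.23, adjusted p = 0.993), followed by Daglb and Pla2g4c.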

How the data were processed

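Gene counts of 26 cortex libraries from 6 groups were analysed. Per the labels' protocols, total RNA was made into stranded libraries. The deposited tables hold raw read counts per Ensembl gene made by the authors. The submitters' processing notes name Trim Galore, STAR, featureCounts, HTSeq and the build mm9, with no roles or versions, and the annotation and strand setting of the counting are not given in the sources used here. Exons of Alox5ap and Ptgs1 overlap those of a gene on the other strand (Gm19719 and Gm43621), which is not among the genes counted. Entries that name no gene took 45.7 to 58.2% of fragments and were left out. Names matched 37607 of 39179 IDs. Libraries of a group differed by 3.52 to 76.2 in chi-square per gene, so none was a copy.

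Genes were filtered with filterByExpr (minimum count 10), scaled by TMM and tested with edgeR 4.0.16 (R 4.3.3), using the quasi-likelihood test with 1 mean per group over all 26 libraries, 9 comparisons and Benjamini-Hochberg adjustment over 16325 genes at 0.05. Errors of log2 fold changes are standard errors. CPM uses TMM-scaled library sizes, and exon lengths come from GENCODE M21. Depth was 11400882 to 16962682 counts, and intervals and floors of 3 counts cover counting error only. The fit was tested on simulated data of 16325 genes, of which a small random part was changed. Of the genes changed by 2-fold between stroke and sham, it recovered 76.1% under high-fat feeding and 73.1% under control feeding. Of genes raised by a smaller factor it recovered 47% and 56.1%. The unchanged genes had the same expected level in every library. Alternatives were DESeq2 1.42.0, voom (limma 3.58.1), RLE size factors, no filter or a minimum count of 30, a covariate for fragments outside genes, only the groups compared, each library left out, and both 15-week libraries low in microglia markers or both libraries high in choroid plexus genes left out. Likeness without the pair low in microglia markers was added after seeing the data. Likeness was ranked over genes averaging at least 1 CPM. Of the RefSeq promoter windows (GRCm38.p6), only the 250 bases before each start were used, although the plan also included bases after the start.

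All 10 genes are named, of the wider lists up to 6 per direction with the smallest p among called genes, and 3 where none was called. The genes and lists, including 15 lists of cell markers, were chosen with earlier results of these data known.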

Additional observations from a re-analysis of the deposited data

Results flagged for a closer look

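Alox5 in stroke cortex after 6 weeks of high-fat diet had 1 library far above the others. Replicate 3 had 1.97 CPM, where the other 5 had 0.634 to 1.13 CPM, and its gap to the next library was 0.627 of the group's range. Of 40 group checks over the 10 genes this was the only one, and chance gives about 1 in 20. Without replicate 3, the edgeR adjusted p of Alox5 for stroke against sham on the high-fat diet was 0.101, against 0.0433 with it.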

How the results depend on the processing

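Of 46 values of single genes under 749 alternatives, 666 stayed the same, 71 lost and 5 gained a call, 2 moved and 5 changed sign. For tested genes, staying the same meant keeping the direction and side of the threshold. Hpgd, Alox12b, Ptgds and Pla2g5 had no test. For them it meant a shift smaller than the SD of libraries within the groups, and moving meant a larger shift. All 5 sign changes were of Ptgs2 for stroke against sham, at 0.1137 under control feeding without sham replicate 1, and at -0.0068, -0.0353, -0.0172 and -0.0858 under high-fat feeding without stroke replicate 5, stroke replicate 6, sham replicate 1 and sham replicate 3. With leave-one-out the Ptgs2 value ranged from -0.2377 to 0.1137 under control feeding and from -0.0858 to 0.2285 under high-fat feeding. The 2 moves were of Pla2g5 with a covariate for fragments outside genes. Hpgds on both diets and Alox5ap under high-fat feeding kept their calls in all alternatives run. Of the 56 pathway genes, stroke against sham under control feeding gave 7 calls, but 3 with voom, 3 with no filter, 3 with the covariate, 12 with only the groups compared, and 1 to 7 when single libraries were left out. Under high-fat feeding it gave 20, but 9 with the covariate, 12 without the pair high in choroid plexus genes, and 12 to 20 when single libraries were left out. For 15 against 6 weeks under control feeding it gave 0, but 2 without both libraries low in microglia markers. Under high-fat feeding it gave 1, but 2 with DESeq2, 12 without both libraries low in microglia markers, 0 with no filter, with a minimum count of 30, with the covariate, with only the groups compared and without the pair high in choroid plexus genes, and 0 to 5 when single libraries were left out, with 5 without replicate 1 of 15 weeks. The causes were not tested. Over all genes, 1253 calls under control feeding became 469 with voom, 767 with no filter, 534 with the covariate and 2453 with only the groups compared, and 3769 under high-fat feeding became 1372 with the covariate. No paired analysis was possible because the replicate numbers follow accession order and pair no libraries across groups. Alox5 rests on 3 to 32 counts per library, which limits the precision of its fold changes.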
